A study of Homo sapiens with 15 samples.

Results

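The cGAS-STING pathway detects DNA in the cytosol. The sensor cGAS binds DNA there and makes the second messenger cGAMP, which binds STING in the endoplasmic reticulum. STING then recruits the kinase TBK1, which phosphorylates the transcription factor IRF3, and IRF3 switches on type I interferon genes. Other proteins set how much DNA or cGAMP is present: TREX1 degrades cytosolic DNA, SAMHD1 removes deoxynucleotides and aids the handling of stalled replication forks, BANF1 (also called BAF) coats DNA and keeps cGAS off the nuclear genome, and ENPP1 hydrolyses cGAMP outside cells. IFI16 is a further DNA-binding sensor, and STIM1, the calcium sensor of the endoplasmic reticulum, retains STING there. DNA-damaging cancer drugs are known to feed this pathway with DNA that leaves the nucleus.

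The 10 genes named above were taken from a list of cytosolic DNA sensing and of cGAMP or DNA turnover, by function. They were chosen with earlier results of these data known. All 10 were among the 18473 genes of the NCI-N87 table and 8 of them were among the 18346 genes of the SNU-484 table. IFI16 and TREX1 were not analysed in SNU-484. All 10 passed the filter on low counts in NCI-N87 (17394 genes tested), and the 8 passed it in SNU-484 (16876 genes tested).

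Messenger RNA was sequenced from 2 human gastric cancer cell lines, both labelled as wild type. The 15 libraries form 5 groups of 3, labelled as biological replicates. NCI-N87, a gastric carcinoma line with amplified HER2 (gene ERBB2), was treated with T-DXd, with trastuzumab or with vehicle. SNU-484, a gastric adenocarcinoma line with low HER2, was treated with T-DXd or with vehicle. The column names of its control libraries carry "iso" where the sample labels say vehicle, so which control agent they received is not certain, and they are called vehicle as labelled. Trastuzumab is an antibody against HER2, T-DXd (trastuzumab deruxtecan) is the same antibody carrying a topoisomerase I inhibitor, vehicle was the acetate buffer and sorbitol solution, and each antibody was given at 1 µg/ml for 72 h. Each group is 1 established line in culture, so the replicates show the spread between cultures of that line, and no immune or stromal cells were added. SNU-484 received no trastuzumab, so the effect of the antibody alone was not measured there.

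Libraries held 47990460 to 64623697 counts in NCI-N87 and 46666533 to 66581448 in SNU-484. Levels are given as CPM, counts scaled to a common library size with trimmed mean of M-values (TMM) factors. Replicate counts differed by a chi-square per degree of freedom of 3.57 to 14.0 in most pairs, against 44.2 and 45.7 in the pairs with NCI-N87 trastuzumab replicate 2 and 30.2 and 46.5 in those with SNU-484 T-DXd replicate 3. Both libraries stood apart from their groups. Within their own comparisons, calls of the pathway genes and the list counts given are also reported without them where they changed. ERBB2 stood at 10240 ± 99.4 CPM in T-DXd-treated and 10540 ± 94.8 CPM in vehicle-treated NCI-N87, and at 319 ± 15.3 and 290.0 ± 4.31 CPM in the same groups of SNU-484 (SD, n = 3 each). The epithelial markers EPCAM, CDH1, KRT8, KRT18 and KRT19 summed to 11400 to 11700 CPM in T-DXd, 8750 to 8780 in trastuzumab and 9310 to 9450 in vehicle libraries of NCI-N87. In SNU-484 the 3 of these 5 markers in the table summed to only 2.30 to 2.86 CPM with T-DXd and 3.17 to 3.38 CPM with vehicle, and CDH1 had 2 to 12 and 4 to 6 counts a library. Of 8 leukocyte markers only 3 were listed for SNU-484, summing to 172 to 194 CPM with T-DXd and 214 to 223 with vehicle. Among them PTPRC, a leukocyte surface marker, stood at 90.7 ± 14.8 CPM in T-DXd-treated and 121 ± 6.92 CPM in vehicle-treated SNU-484. Of 6 fibroblast and endothelial markers 4 were listed, summing to 195 to 205 and 226 to 243 CPM in the same groups. The fibroblast collagen gene COL1A2 stood at 185 ± 5.48 and 214 ± 8.70 CPM, and COL1A1 at only 9.79 ± 0.50 and 13.6 ± 0.58 CPM. The markers of SNU-484 therefore go against the epithelial identity in its label, and it is called here only by its name.

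The first question was how strongly each gene of the pathway was expressed. Levels between genes were compared as CPM per kilobase of exon, with the exons of all annotated transcripts merged. BANF1 ranked first in every group, at 66.6 ± 1.35 with T-DXd, 75.5 ± 0.53 with trastuzumab and 81.1 ± 0.63 CPM per kilobase with vehicle in NCI-N87, and IRF3 was next at 24.9 ± 0.61, 23.2 ± 0.92 and 24.6 ± 0.12 (SD, n = 3). STING1 and CGAS followed in vehicle-treated NCI-N87 at 7.16 ± 0.06 and 7.02 ± 0.41 CPM per kilobase, a pair whose libraries overlapped. STIM1 stood at 4.04 ± 0.12, TBK1 at 3.11 ± 0.06, TREX1 at 2.50 ± 0.19 and SAMHD1 at 1.81 ± 0.07 CPM per kilobase, each clear of its neighbour. IFI16 and ENPP1 were lowest at 0.28 ± 0.05 and 0.26 ± 0.02 CPM per kilobase, also an overlapping pair, with 59 to 96 and 154 to 192 counts a library.

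In vehicle-treated SNU-484, BANF1 and IRF3 again led at 136 ± 6.42 and 14.8 ± 0.73 CPM per kilobase. CGAS and STIM1 (5.51 ± 0.38 and 5.00 ± 0.18) overlapped, as did TBK1 and SAMHD1 (3.46 ± 0.11 and 3.32 ± 0.13). STING1 was next to last at 0.59 ± 0.08 and ENPP1 last at 0.40 ± 0.02 CPM per kilobase. With the longest transcript in place of merged exons, 2 to 6 members per group took another rank. With the deposited TPM (transcript abundance scaled by length and library size), 2 to 4 did. BANF1 and IRF3 kept the top 2 ranks in every group under all 3 measures, while the middle of the order depended on the length used.

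**Figure D1:**
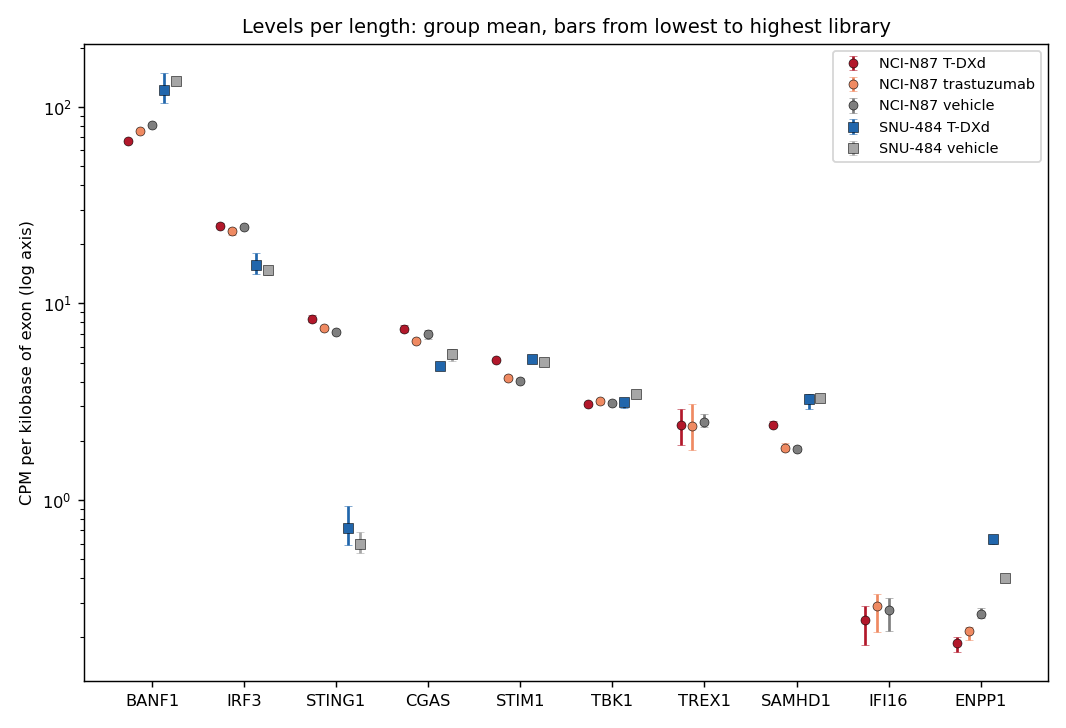
Level of each gene as CPM per kilobase of merged exon, on a log axis, for the 3 NCI-N87 groups (circles) and the 2 SNU-484 groups (squares); points are means of 3 libraries and bars run from the lowest to the highest library. BANF1 is highest in every group, and STING1 is the gene with the widest gap between the lines, at 7.16 in vehicle-treated NCI-N87 and 0.59 in vehicle-treated SNU-484.

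Of the 5 genes called with T-DXd against vehicle in NCI-N87, described next, SAMHD1, STIM1, BANF1 and ENPP1 have a promoter entry, and STING1 has none. The sequences of those 4 around their start sites follow (RefSeq, GRCh38.p14, 250 bases before to 30 after the start, 5′ to 3′ on the gene's strand). They are shown so that the genes that rose and those that fell can be set side by side at their promoters. Promoters of 7 of the 10 genes were matched. Capitals mark matches on either strand. The GC box was searched as GGGCGG. The CCAAT box was searched by the letters of its name, and the E2F core as TTTNNCGC, where N is any base.
SAMHD1, chr20:36951679-36951958, minus strand: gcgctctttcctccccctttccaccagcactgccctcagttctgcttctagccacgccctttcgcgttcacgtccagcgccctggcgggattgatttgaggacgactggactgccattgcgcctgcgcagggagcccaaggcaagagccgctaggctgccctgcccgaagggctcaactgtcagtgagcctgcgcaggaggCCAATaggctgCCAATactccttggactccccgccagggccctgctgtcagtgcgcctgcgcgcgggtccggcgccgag
STIM1, chr11:3854354-3854633, plus strand: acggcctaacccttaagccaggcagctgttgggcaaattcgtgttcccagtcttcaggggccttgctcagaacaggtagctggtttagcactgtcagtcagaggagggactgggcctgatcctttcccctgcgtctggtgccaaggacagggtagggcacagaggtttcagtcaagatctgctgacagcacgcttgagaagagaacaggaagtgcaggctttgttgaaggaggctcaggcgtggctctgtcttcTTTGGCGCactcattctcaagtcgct
BANF1, chr11:66002253-66002532, plus strand: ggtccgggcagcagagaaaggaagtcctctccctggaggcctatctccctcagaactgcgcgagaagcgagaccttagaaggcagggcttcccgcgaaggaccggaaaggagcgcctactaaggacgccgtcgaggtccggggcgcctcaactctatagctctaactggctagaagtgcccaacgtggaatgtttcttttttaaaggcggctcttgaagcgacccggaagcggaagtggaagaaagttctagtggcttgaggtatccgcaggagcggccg
ENPP1, chr6:131807770-131808049, plus strand: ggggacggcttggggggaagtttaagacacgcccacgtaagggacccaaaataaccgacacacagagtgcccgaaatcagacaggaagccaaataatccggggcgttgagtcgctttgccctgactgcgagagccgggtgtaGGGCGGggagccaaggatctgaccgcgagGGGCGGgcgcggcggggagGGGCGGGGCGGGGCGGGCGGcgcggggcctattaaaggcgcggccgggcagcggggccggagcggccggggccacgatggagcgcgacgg

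The 4 windows held different letters. The ENPP1 window, in which several GC boxes overlap, held 7 matches to GGGCGG over its 300 bases, of which the last lay beyond the part printed. The SAMHD1 window held 2 CCAAT boxes and no GC box, the STIM1 window held 1 E2F core, and the BANF1 window held no match to any motif searched. Of 34796 distinct promoter windows, 44.9% held GGGCGG, 34.6% CCAAT and 6.86% TTTNNCGC on either strand. None of the matched windows of the pathway held the core of the interferon-stimulated response element (GAAA and GAAA with 2 bases between, in 3.57% of all windows), the interferon-gamma-activated site (TTC and GAA with 3 bases between, 7.67%) or an NF-kB core (GGG and TTTCC with 2 bases between, 1.91%). STIM1 has 4 start sites in the table, and the first along the chromosome is printed. The windows of the other STIM1 starts held 2, 8 and 9 GC boxes. The last 2 of these windows overlap, so the same boxes are counted in both. Such matches are letters in a window and were not tested against the expression values.

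In NCI-N87, the line with amplified HER2, T-DXd against vehicle asked whether the antibody with its payload altered the transcripts of the pathway. SAMHD1, STIM1 and STING1 rose and ENPP1 and BANF1 fell, all by less than 1.5-fold, while CGAS, TBK1, IRF3, IFI16 and TREX1 did not pass the test (edgeR quasi-likelihood test, adjusted p under 0.05 after Benjamini-Hochberg adjustment over all genes, as for every adjusted p here). Of all genes tested, 29.1% were called higher and 29.5% lower, so 3 and 2 of 10 are near the background. The median absolute log2 fold change was 0.20 over the 10 genes and 0.26 over all genes. As RNA was taken from whole cultures, less RNA per cell and fewer cells that express a gene cannot be told apart.

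SAMHD1 (chr20:36889773-36951708, minus strand, NCBI gene 25939) had 27.5, 25.5 and 25.5 CPM with T-DXd, against 21.1, 19.2 and 19.6 with trastuzumab and 19.3, 20.5 and 19.1 with vehicle. All 3 T-DXd libraries lay above every other NCI-N87 library. The rise against vehicle was 0.42 ± 0.05 on the log2 scale (1.33-fold, fitted SE, adjusted p = 4.19e-06), the largest rise among the 10 genes. STIM1 (chr11:3854604-4093210, plus strand, gene 6786) had 61.5, 62.1 and 61.5 CPM with T-DXd, against 49.9, 52.0 and 49.0 with trastuzumab and 50.4, 47.8 and 47.8 with vehicle. Its T-DXd libraries again lay apart from both other groups, at a log2 fold change of 0.34 ± 0.03 against vehicle (1.27-fold, adjusted p = 1.64e-07). STING1 (chr5:139475533-139482758, minus strand, gene 340061) had 39.6, 38.5 and 41.8 CPM with T-DXd, against 35.0, 36.5 and 36.0 with trastuzumab and 34.6, 34.5 and 34.0 with vehicle. The T-DXd and vehicle libraries did not overlap, and the rise was 0.22 ± 0.04 (1.16-fold, adjusted p = 0.000176).

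BANF1 (chr11:66002503-66004149, plus strand, gene 8815), the most abundant member, had 97.8, 99.5 and 102 CPM with T-DXd, against 114, 112 and 113 with trastuzumab and 120.3, 122 and 122 with vehicle. The 3 groups formed separate steps with no overlap. BANF1 fell by 0.28 ± 0.02 on the log2 scale with T-DXd against vehicle (0.82-fold, adjusted p = 8.05e-09), the smallest error of the 10. ENPP1 (chr6:131808020-131895155, plus strand, gene 5167), the cGAMP hydrolase, had 1.92, 2.23 and 2.29 CPM with T-DXd, against 2.58, 2.56 and 2.21 with trastuzumab and 2.86, 2.96 and 3.22 with vehicle. Every T-DXd library lay below every vehicle library, on 118 to 133 and 154 to 192 counts a library. ENPP1 fell by 0.49 ± 0.14 (0.71-fold, adjusted p = 0.00502), the largest change in size among the 10 and one of the least precise.

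**Figure D2:**
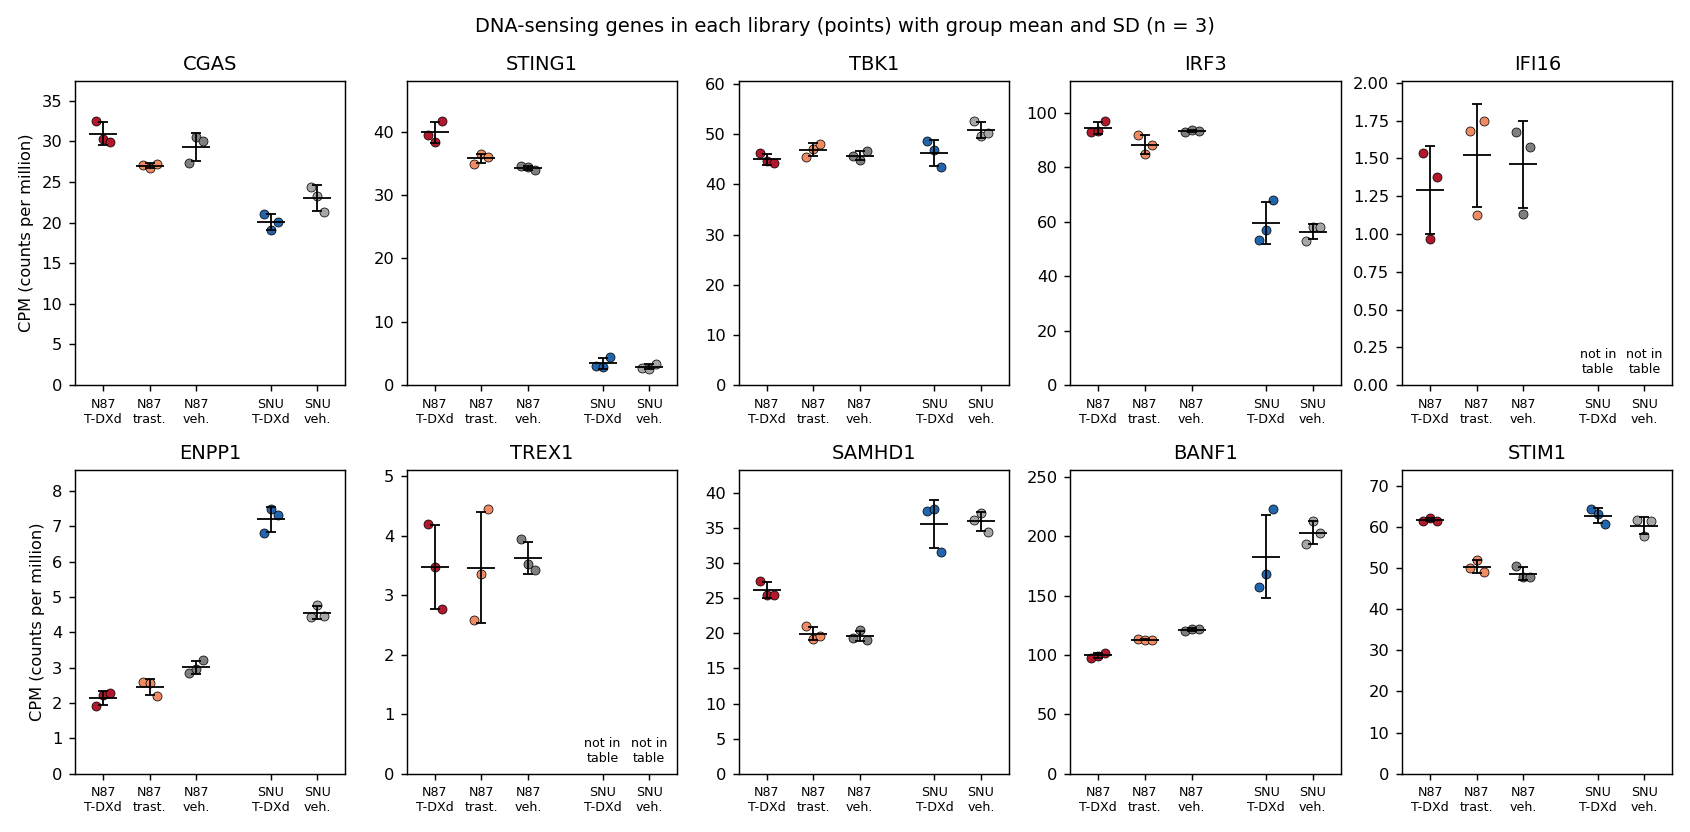
CPM of each gene in every library (points), with the mean and SD of 3 libraries as a bar, for the NCI-N87 groups (T-DXd, trastuzumab, vehicle) and the SNU-484 groups (T-DXd, vehicle); each panel has its own linear axis from 0. The T-DXd points of SAMHD1, STIM1 and STING1 lie above, and those of BANF1 and ENPP1 below, the vehicle points of NCI-N87, whereas in SNU-484 ENPP1 lies higher with T-DXd.

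The sensor and the relay downstream of STING showed values close to those of vehicle. CGAS (chr6:73423711-73452297, minus strand, gene 115004) had 32.5, 30.3 and 29.9 CPM with T-DXd, against 27.1, 26.7 and 27.2 with trastuzumab and 27.4, 30.6 and 30.0 with vehicle. T-DXd and vehicle overlapped, with a log2 fold change of 0.08 (95% interval -0.03 to 0.18, adjusted p = 0.192). TBK1 (chr12:64452120-64502114, plus strand, gene 29110) had 46.3, 44.6 and 44.2 CPM with T-DXd, against 45.5, 47.1 and 48.0 with trastuzumab and 45.6, 45.0 and 46.6 with vehicle. Its log2 fold change against vehicle was -0.02 (95% interval -0.10 to 0.05, adjusted p = 0.619). IRF3 (chr19:49659572-49665857, minus strand, gene 3661) had 92.9, 93.3 and 97.0 CPM with T-DXd, against 91.7, 84.7 and 88.2 with trastuzumab and 92.9, 93.8 and 93.2 with vehicle. Against vehicle it stood at 0.02 (95% interval -0.04 to 0.08, adjusted p = 0.642). For TBK1 and IRF3 the intervals exclude a change of 10% in either direction.

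IFI16 and TREX1 were measured with far less precision. IFI16 (chr1:158999976-159055151, plus strand, gene 3428) had 94, 57 and 80 counts with T-DXd, against 84, 54 and 115 with trastuzumab and 96, 59 and 94 with vehicle. The spread inside each group was as wide as between groups, and the interval of the log2 fold change against vehicle was -0.65 to 0.29. TREX1 (chr3:48465830-48467645, plus strand, gene 11277), the main cytosolic DNA exonuclease, had 257, 204 and 161 counts with T-DXd, against 129, 161 and 292 with trastuzumab and 226, 183 and 204 with vehicle. Its interval was -0.44 to 0.32. Both intervals include a fall as large in size as the rise of SAMHD1, and neither includes a rise of that size. The gene ATRIP overlaps the whole of TREX1 on the same strand in the GENCODE annotation, so reads of the pair may have been split by the counting, and the TREX1 values carry that uncertainty. CGAS, IRF3, IFI16, SAMHD1 and STIM1 each share bases with a gene on the opposite strand (DDX43, BCL2L12, PYDC5, TLDC2 and STIM1-AS1 in that order), and as the use of strand in counting is not stated, reads from those stretches cannot be told apart. The same holds for TBK1, which overlaps 2 long noncoding genes (1 on each strand), and for ENPP1, which overlaps pseudogenes. These overlaps were taken over whole gene spans, introns included, so whether counted exon bases are shared was not examined.

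The genes around the pathway were read from further lists, to be set against the 29.1% of all genes called higher and 29.5% called lower. The 15 other DNA sensors and cofactors tested gave 4 higher and 9 lower calls, with a median log2 fold change of -0.18 against -0.01 over all genes. The falls included DHX9 (-0.35 ± 0.03), a helicase, XRCC5 (-0.34 ± 0.02), the Ku80 subunit of the DNA end-binding complex, and HMGB1 (-0.33 ± 0.03), a chromatin protein that bends DNA. In XRCC5 the T-DXd libraries spanned 405 to 414 CPM, against 519 to 523 CPM with vehicle. Of 15 other genes of nucleic acid clearance, 4 rose and 3 fell, with the lysosomal ribonuclease gene RNASET2 at -0.78 ± 0.07 and the deoxyribonuclease gene DNASE1 at 0.43 ± 0.09.

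Carriers of cGAMP had 4 higher and 3 lower calls of 11, near the share over all genes. LRRC8A, the obligatory subunit of the volume-regulated anion channels that pass cGAMP, rose by 0.71 ± 0.02 (147 to 150.0 CPM with T-DXd against 88.8 to 91.3 with vehicle) and LRRC8E by 0.51 ± 0.07, while their partner LRRC8D fell by 0.37 ± 0.04. SLC19A1, the folate carrier that also imports cGAMP, fell by 0.65 ± 0.06, to 18.4 ± 0.94 CPM with T-DXd against 28.9 ± 1.65 with vehicle. Of 33 regulators of cGAS and STING, 17 rose and 7 fell (median 0.10). They included NPC1, the lysosomal cholesterol exporter that binds STING, at 0.62 ± 0.03, TOLLIP, which stabilises STING, at 0.38 ± 0.03, and NLRX1, a mitochondrial inhibitor of STING signalling, at -0.34 ± 0.07.

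Of 18 genes of the TBK1, IRF and NF-kB relay, 8 rose and 4 fell. The autophagy receptor and TBK1 substrate OPTN rose by 0.85 ± 0.04 and the noncanonical subunits NFKB2 and RELB by 0.67 ± 0.03 and 0.53 ± 0.05, whereas NFKB1 fell by 0.56 ± 0.03. The RNA-sensing arm gave 7 higher and 0 lower calls of 11, led by OAS1 (0.67 ± 0.04), which makes oligoadenylates on binding RNA, and OAS3 (0.60 ± 0.03). Of 10 interferon readouts, 8 rose and 1 fell. The one that fell, CCL5 (a chemokine, named after its value was seen), stood at -0.37 ± 0.10, ISG15 stood at 0.96 ± 0.04 and IFI6 at 1.03 ± 0.04. The study named some of those readouts, ISG15 and CCL5 among them, and its text does not name IFI6. For CCL5 the study reported a rise in secretion by NCI-N87 with T-DXd, which is a measure of protein and not of RNA. The list was chosen with earlier results of these data known, so the direction of its genes is not independent evidence.

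The partners of STIM1 and BANF1 were also counted. ORAI2 and ORAI3, plasma-membrane calcium channel subunits that STIM1 opens, rose by 0.45 ± 0.04 and 0.38 ± 0.09, while ORAI1 fell by 0.17 ± 0.04 and the fourth partner was not called. Of 12 nuclear envelope partners of BANF1, 4 rose and 2 fell, also near the share over all genes. They included VRK1, the kinase that releases BANF1 from DNA, at 0.37 ± 0.06 and lamin B1 (LMNB1) at -0.25 ± 0.03. In the same libraries the 5 leukocyte markers in the table summed to 56.7 to 60.8 CPM with T-DXd, 27.2 to 29.1 with trastuzumab and 25.5 to 27.2 with vehicle, with CD68, ITGAX and ITGAM called higher. PTPRC was not among them. The fibroblast marker COL1A1 and the endothelial marker VWF, the 2 of 6 such markers in the table, were called higher too, and summed to 7.89 to 10.1 CPM with T-DXd, 2.73 to 3.09 with trastuzumab and 2.23 to 2.54 with vehicle. The part of these marker changes in the results above was not tested.

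**Figure D3:**
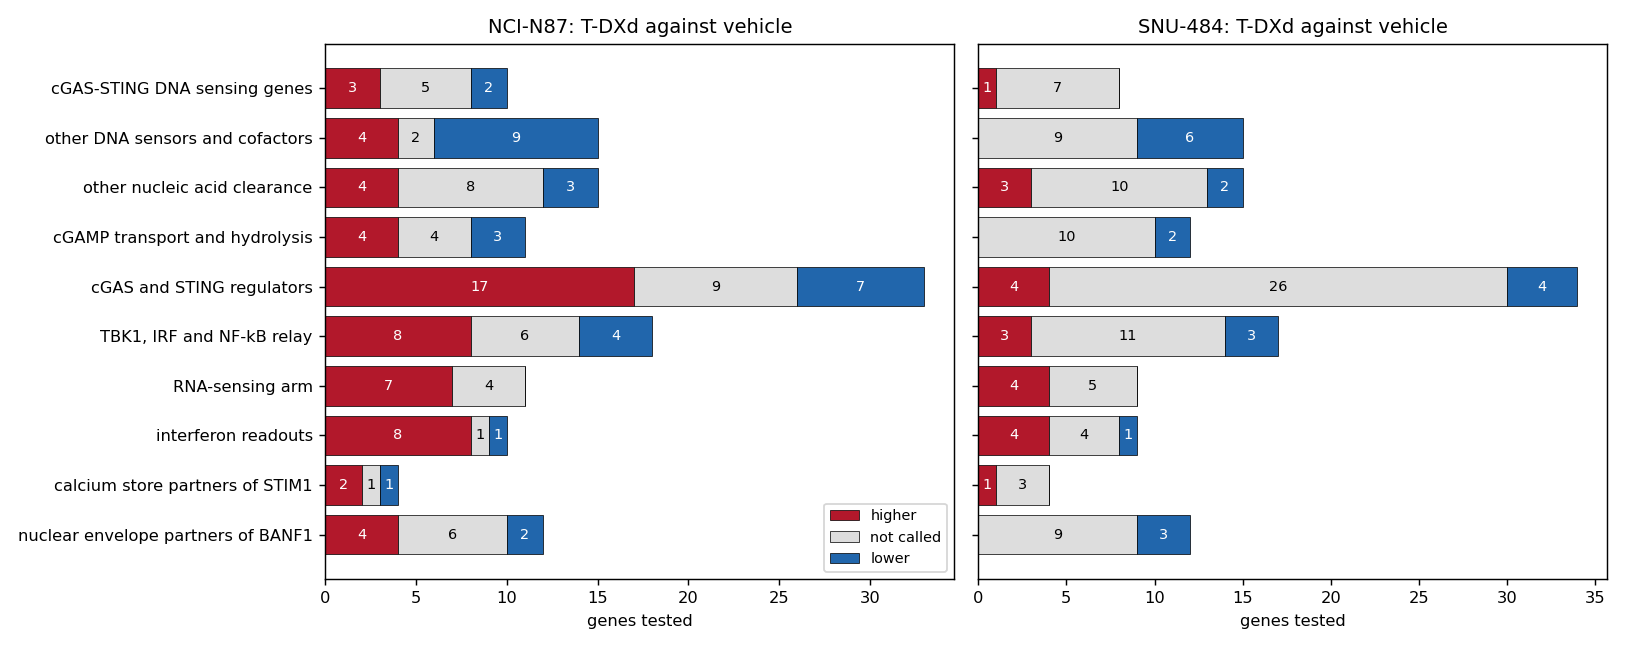
Number of genes tested in each list that were called higher (red, left), not called (grey, middle) or called lower (blue, right) with T-DXd against vehicle, in NCI-N87 and in SNU-484; calls are at adjusted p under 0.05. The RNA-sensing list has no lower call in either line, and the other DNA sensors have 9 lower calls of 15 in NCI-N87 and 6 of 15 in SNU-484.

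Trastuzumab against vehicle in NCI-N87 gave the effect of the antibody without payload. BANF1 was the one member called, with a fall of 0.10 ± 0.02 on the log2 scale (0.93-fold, adjusted p = 0.00719). Of all genes, 6.09% were called lower and 3.65% higher. Its trastuzumab libraries lay between 112 and 114 CPM, below the 120.3 to 122 CPM of vehicle. ENPP1 stood at -0.30 (95% interval -0.59 to -0.02, adjusted p = 0.185) and CGAS at -0.12 (-0.22 to -0.01, adjusted p = 0.164), neither of them called. Their groups did not overlap, nor did those of STING1 and IRF3, also not called. How many of all genes have such groups was not counted, so nothing about the members is read from it. IRF3 stood at -0.08 (adjusted p = 0.0962) and was called without trastuzumab replicate 1 (-0.11, adjusted p = 0.0423). Without trastuzumab replicate 2, the library that stood apart, BANF1 kept its call (-0.10, adjusted p = 0.0403) and IRF3 stood at -0.05 (adjusted p = 0.353). Over all genes 1695 calls were made, but leaving out vehicle replicate 1 gave 1055, leaving out vehicle replicate 3 gave 993 and leaving out trastuzumab replicate 1 gave 1108. Upper-quartile factors split the calls 754 higher to 818 lower, where TMM factors gave 635 to 1060.

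Among the surrounding genes, 4 of the 15 other DNA sensors were called lower with trastuzumab, against 6.09% of all genes. XRCC6, the Ku70 partner of XRCC5, fell by 0.12 ± 0.02, HMGB1 by 0.10 ± 0.03, the helicase gene DDX41 by 0.11 ± 0.03 and HNRNPA2B1, a nuclear RNA-binding protein, by 0.07 ± 0.02. Of 33 regulators 1 rose and 3 fell, and of 5 epithelial markers 3 fell (KRT8, KRT18 and KRT19). The part of the marker falls in these results was not tested. OPTN rose by 0.28 ± 0.05, TRIM56, a ubiquitin ligase that acts on cGAS and STING, by 0.20 ± 0.03, and IFI6 by 0.17 ± 0.04. The nuclear envelope genes TMPO, LMNB1 and LMNB2 fell by 0.13 ± 0.03, 0.12 ± 0.03 and 0.11 ± 0.03, beside BANF1. Without trastuzumab replicate 2, 3 of the DNA sensors and 2 of the nuclear envelope genes were called lower, with DDX41 (-0.10, adjusted p = 0.137) and LMNB2 (-0.09, adjusted p = 0.0676) no longer called, against 4.40% of all genes.

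T-DXd against trastuzumab, the comparison that sets the conjugate against its own antibody, called 6 members. CGAS, STING1, IRF3, SAMHD1 and STIM1 were higher and BANF1 was lower, against a background of 28.3% higher and 29.4% lower over all genes. This comparison shares its T-DXd libraries with the one against vehicle, so the values are set side by side and not counted as a repeat. SAMHD1 was 0.39 ± 0.05 higher against trastuzumab (adjusted p = 9.66e-06) and 0.42 ± 0.05 against vehicle, and STIM1 0.30 ± 0.03 (adjusted p = 1.11e-06) and 0.34 ± 0.03. STING1 was 0.16 ± 0.04 higher (adjusted p = 0.00295) and BANF1 0.18 ± 0.02 lower on the log2 scale (-0.18, adjusted p = 2.18e-06).

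CGAS and IRF3 were called against trastuzumab and not against vehicle. CGAS was 0.20 ± 0.05 higher (adjusted p = 0.00302), with all 3 T-DXd libraries above all 3 trastuzumab libraries, which lay at 26.7 to 27.2 CPM. IRF3 was 0.10 ± 0.03 higher (1.07-fold, adjusted p = 0.00862). Without trastuzumab replicate 2, in which IRF3 was lowest at 84.7 CPM, IRF3 stood at 0.07 and lost its call (adjusted p = 0.0649), while CGAS kept its own (0.19, adjusted p = 0.0106), as did the other 4. ENPP1, at -0.19 (95% interval -0.48 to 0.10, adjusted p = 0.257), had overlapping groups, and its trastuzumab libraries lay between the other groups on average.

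**Figure D4:**
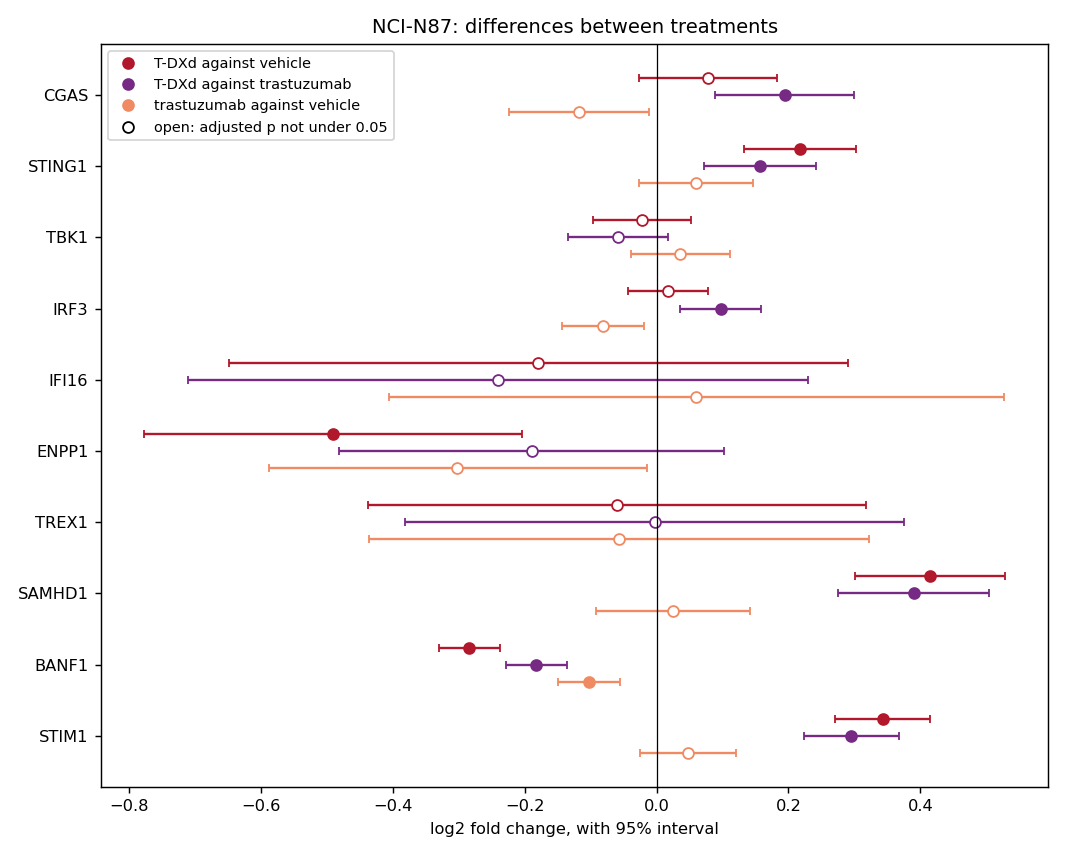
Log2 fold changes of the 10 genes in NCI-N87 for T-DXd against vehicle, T-DXd against trastuzumab and trastuzumab against vehicle, with 95% intervals; filled points passed adjusted p under 0.05. BANF1 lies below 0 in all 3 comparisons, SAMHD1 and STIM1 lie above 0 in both T-DXd comparisons, and the intervals of IFI16 and TREX1 are the widest beside those of ENPP1.

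In SNU-484, the line with low HER2, T-DXd against vehicle gave the response where the ERBB2 transcript was present but far lower than in NCI-N87. ENPP1 rose, and it was the one member of 8 that passed the test. Of all genes, 11.2% were called higher and 9.65% lower, and the median absolute log2 fold change was 0.14 over the 8 members and 0.17 over all genes. ENPP1 had 6.79, 7.47 and 7.31 CPM with T-DXd, against 4.43, 4.77 and 4.47 with vehicle. The groups lay far apart, on 341 to 461 and 256 to 299 counts a library, with a rise of 0.66 ± 0.10 on the log2 scale (1.58-fold, adjusted p = 0.00284). Without T-DXd replicate 3, the library that stood apart, it was 0.65 (adjusted p = 0.000649).

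The sensor and kinase stood lower without passing the test. CGAS had 21.1, 19.1 and 20.1 CPM with T-DXd, against 24.4, 23.2 and 21.3 with vehicle. Every T-DXd library lay below every vehicle library, at a log2 fold change of -0.19 (95% interval -0.36 to -0.03, adjusted p = 0.0887). TBK1 had 48.6, 46.8 and 43.4 CPM with T-DXd, against 52.7, 49.7 and 50.3 with vehicle, at -0.14 (95% interval -0.27 to -0.002, adjusted p = 0.135). STING1, scarce in this line, had 208, 171 and 208 counts with T-DXd, against 155, 161 and 207 with vehicle, and its interval of -0.17 to 0.70 on the log2 scale includes both no change and the rise seen in NCI-N87. Without T-DXd replicate 3 the estimate for STING1 was 0.05 in place of 0.26.

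BANF1 had 157, 168 and 223 CPM with T-DXd, against 193, 213 and 203 with vehicle. T-DXd replicate 3 lay above every vehicle library and the other T-DXd libraries below them all. With all libraries the log2 fold change was -0.15 (95% interval -0.42 to 0.12, adjusted p = 0.391). Without replicate 3 BANF1 was called lower, at -0.32 ± 0.05 (adjusted p = 0.000446), so this value rests on that library. SAMHD1 (37.4, 37.6 and 31.6 CPM with T-DXd, against 36.2, 37.2 and 34.4 with vehicle) stood at -0.01 (-0.19 to 0.16), STIM1 at 0.06 (-0.06 to 0.18) and IRF3 at 0.08 (-0.13 to 0.28), none called. Replicate 3 was also the library with the lowest PTPRC (73.6 CPM), and the part of that difference in these results was not tested. Over all genes 3526 calls were made. Leaving out T-DXd replicate 3 gave 5477, leaving out T-DXd replicate 2 gave 1836, and leaving out vehicle replicates 1, 2 or 3 gave 1726, 1466 or 1666.

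In the genes around the pathway, where 11.2% of all genes were called higher and 9.65% lower, the other DNA sensors had 0 higher and 6 lower calls of 15, DHX9 at -0.31 ± 0.06 and XRCC5 at -0.28 ± 0.05 among them. PLD3, a lysosomal exonuclease for single-stranded DNA, rose by 0.47 ± 0.06 and DNASE2, the lysosomal deoxyribonuclease, by 0.27 ± 0.06, in a clearance list of 15 with 3 higher and 2 lower calls. GJA1, the gap junction protein connexin 43 through which cGAMP can pass, fell by 0.29 ± 0.05. Of 34 regulators 4 rose and 4 fell, among them INSIG1, a STING cofactor in the endoplasmic reticulum, at -0.36 ± 0.06. The 17 relay genes gave 3 higher and 3 lower calls, with IRF1 at 0.54 ± 0.09 and MAP3K14, the noncanonical NF-kB kinase, at -0.58 ± 0.06. The RNA-sensing arm had 4 higher and 0 lower calls of 9 (OAS3, 0.71 ± 0.10). The interferon readouts, again a list chosen with earlier results known, had 4 and 1 of 9 (IFI6, 1.59 ± 0.08). Of the nuclear envelope partners, 0 rose and 3 of 12 fell, with TMPO at -0.48 ± 0.06 and LMNB1 at -0.41 ± 0.05. Without T-DXd replicate 3, all the genes named here kept their calls, and the share over all genes was 16.4% higher and 15.7% lower. The counts were then 1 higher and 7 lower for the DNA sensors, 4 and 2 for clearance, 1 and 5 for the cGAMP carriers, 6 and 6 for the regulators, 3 and 5 for the relay and 0 and 5 for the nuclear envelope partners, and as before for RNA sensing and the readouts.

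The difference in the T-DXd effect between the lines was tested as an interaction over the 14785 genes tested in both. The T-DXd effect on ENPP1 differed most and was opposite in direction, and those on SAMHD1, STIM1 and CGAS were higher in NCI-N87 than in SNU-484. As the control agent of SNU-484 is not certain, a difference between lines and one between control agents cannot be told apart. Of all genes, 22.3% were called higher and 19.3% lower in NCI-N87, against 3 and 1 of the 8 members. With upper-quartile factors the split over all genes was 2698 higher against 3518 lower, in place of 3301 against 2860. For ENPP1 the difference was -1.13 ± 0.15 on the log2 scale (NCI-N87 minus SNU-484, adjusted p = 6.48e-05), and -1.15 without SNU-484 T-DXd replicate 3 (adjusted p = 4.81e-05).

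SAMHD1 differed by 0.45 ± 0.10 (adjusted p = 0.00218) and by 0.34 without that library (adjusted p = 0.00118). STIM1 differed by 0.31 ± 0.06 (adjusted p = 0.00125) and by 0.25 without it (adjusted p = 0.0014). CGAS differed by 0.29 ± 0.09 (adjusted p = 0.0238), on a value of 0.08 in NCI-N87 and -0.19 in SNU-484, neither of which was called on its own. Its call was lost with upper-quartile factors (0.23, adjusted p = 0.0598), and without NCI-N87 T-DXd replicate 1 (0.25, adjusted p = 0.0622), NCI-N87 vehicle replicate 1 (0.25, adjusted p = 0.064), SNU-484 T-DXd replicate 2 (0.26, adjusted p = 0.0596) or SNU-484 vehicle replicate 1 (0.24, adjusted p = 0.0642).

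For the other 4 members the difference did not pass the test, and the intervals say how large it could be. STING1 stood at -0.01 (95% interval -0.38 to 0.36), TBK1 at 0.14 (-0.01 to 0.28), IRF3 at -0.04 (-0.25 to 0.18) and BANF1 at -0.11 (-0.39 to 0.18). BANF1 stood at 0.03 without SNU-484 T-DXd replicate 3. STING1 was called in NCI-N87 and not in SNU-484, and the test of the difference did not show that its response differed between the lines.

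**Figure D5:**
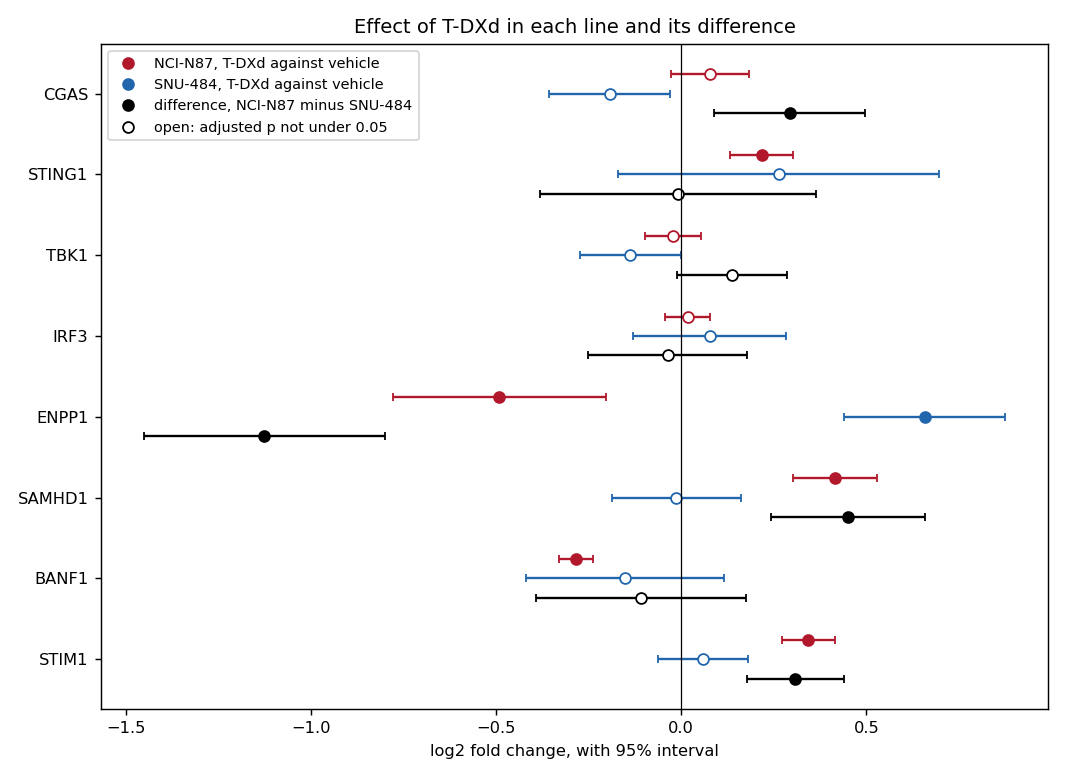
Log2 fold change with T-DXd against vehicle in NCI-N87 and in SNU-484, and the difference between them (NCI-N87 minus SNU-484), for the 8 genes in both tables, with 95% intervals; filled points passed adjusted p under 0.05. ENPP1 lies at -0.49 in NCI-N87 and 0.66 in SNU-484, and the STING1 and BANF1 intervals of SNU-484 include the NCI-N87 values.

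Vehicle-treated NCI-N87 was set against vehicle-treated SNU-484 to compare the pathway before treatment. STING1 was 12.99-fold higher in NCI-N87, IRF3 and CGAS were moderately higher, and SAMHD1, BANF1, ENPP1 and STIM1 were lower. Of all genes, 41.9% were called higher and 43.3% lower, so 7 calls among 8 members are close to the background. The lines were deposited in separate tables, so a difference between lines and one between the runs that made the tables cannot be told apart. The same holds for a difference in control agent, which is not certain in SNU-484. Scaled over both lines together, STING1 had 37.4, 37.3 and 36.7 CPM in NCI-N87, against 2.70, 2.56 and 3.30 CPM in SNU-484. The gap of 3.70 ± 0.12 on the log2 scale (adjusted p = 8.49e-13) was the widest of the 8, where the median absolute difference was 0.80 over all genes.

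IRF3 had 100.4, 101 and 100.5 CPM in NCI-N87, against 53.4, 57.8 and 57.7 in SNU-484, at 0.84 ± 0.07 (1.79-fold, adjusted p = 3.73e-08). CGAS had 29.6, 33.1 and 32.4 CPM in NCI-N87, against 24.6, 23.2 and 21.2 in SNU-484, at 0.46 ± 0.07 (1.38-fold, adjusted p = 1.48e-05). TBK1 had 49.3, 48.6 and 50.3 CPM in NCI-N87, against 53.0, 49.6 and 50.2 in SNU-484. TBK1 was the one member whose lines overlapped, with an interval of -0.15 to 0.06.

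SAMHD1 was lower in NCI-N87 by -0.76 ± 0.07 (0.59-fold, adjusted p = 8.17e-08), with 20.9, 22.1 and 20.6 CPM against 36.4, 37.1 and 34.4 in SNU-484. After T-DXd its NCI-N87 libraries, at 30.2, 28.0 and 27.9 CPM on the same scale, still lay below all SNU-484 libraries. BANF1 stood at -0.63 ± 0.09 (adjusted p = 1.83e-05), ENPP1 at -0.49 ± 0.11 (adjusted p = 0.000649) and STIM1 at -0.20 ± 0.04 (adjusted p = 0.00063). For ENPP1 the gap was wider with T-DXd: 2.12, 2.45 and 2.50 CPM in NCI-N87, against 6.81, 7.47 and 7.33 CPM in SNU-484, compared with 3.09, 3.20 and 3.47 against 4.46, 4.76 and 4.46 CPM with vehicle.

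Genes around the pathway differed between the vehicle-treated lines in both directions, as 41.9% of all genes were called higher and 43.3% lower. Of 11 cGAMP carriers 7 were higher and 2 lower in NCI-N87, a total near that share, with GJB2 (connexin 26) at 6.91 ± 0.14 and GJC1 (connexin 45) at -7.67 ± 0.14. Of 9 interferon readouts 6 were higher and 3 lower, with IFIT3 at 6.76 ± 0.11 and MX1 at 5.70 ± 0.14. OPTN stood at -2.83 ± 0.05 and the STING-linked ligase gene TRIM56 at 2.79 ± 0.08. EPCAM, CDH1 and KRT8 differed by 8.09 to 12.6 on the same scale, and the part of that difference in cell identity in the values of the pathway genes was not tested.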

How the data were processed

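Total RNA of 15 cultures (2 lines, 5 groups, 3 biological replicates each) was sequenced from TruSeq Stranded mRNA libraries. Per the labels, the tools of the authors were Trimmomatic 0.38 for trimming, HISAT2 2.1.0 for alignment (GRCh38) and StringTie 2.1.3b for assembly and quantification. The annotation release and the use of strand in counting are not given in the sources used here. The deposited tables hold raw read counts per gene, the basis of every test and at least 1 in every library for each gene listed, and TPM values that the authors scaled by transcript length and library size, which were used only for the order of levels. Deposited columns of FPKM and transformed values, and a sheet repeating 60 genes, were not used.

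Counts were fitted with edgeR 4.0.16 (R 4.3.3): TMM factors, filterByExpr (minimum count 10), quasi-likelihood F-test, Benjamini-Hochberg adjustment over all genes tested, calls at adjusted p under 0.05. SEs are the log2 fold change divided by the square root of F. NCI-N87 (9 libraries) and SNU-484 (6) were fitted separately; comparisons between lines used 12 libraries and genes matched by NCBI gene ID. The fit was tested on simulated data with known changes. Intervals are at 95%. The p-values test differences between groups against the spread between cultures, estimated with help from all genes tested. Exon lengths and overlaps came from GENCODE v44, gene positions and promoters from RefSeq (GRCh38.p14); 7 of the 10 genes had a promoter entry. The members and lists were chosen with earlier results of these data known. All 10 genes are named everywhere; from each other list at most 4 called genes per comparison were eligible, chosen by largest change among genes whose groups do not overlap and whose average log2 CPM reaches 1, or, where none was called, the 2 most abundant. Alternatives were DESeq2 1.42.0, a replicate block, each library left out, other size factors (upper-quartile, RLE), a stricter filter (10 counts in all libraries) or none, and other sets of libraries in the fit. The TPM order and the list counts without the libraries that stood apart were added after seeing the data.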

Additional observations from a re-analysis of the deposited data

Results flagged for a closer look

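The effect of T-DXd against vehicle differed between NCI-N87 and SNU-484 for 4 of the 8 genes measured in both. The test was the interaction term of the edgeR fit over all genes. By that term 22.3% of the 14785 genes tested were called higher and 19.3% lower in NCI-N87, so such calls were common. The control agent of SNU-484 is not certain, so line and control agent cannot be told apart here. ENPP1 had the largest difference, -1.13 ± 0.15 on the log2 scale (NCI-N87 minus SNU-484, adjusted p = 6.48e-05), and was lower with T-DXd in 3 of 3 NCI-N87 libraries and higher in 3 of 3 SNU-484 libraries than in any vehicle library of the same line. SAMHD1 differed by 0.45 ± 0.10 (adjusted p = 0.00218) and STIM1 by 0.31 ± 0.06 (adjusted p = 0.00125). CGAS differed by 0.29 ± 0.09 (adjusted p = 0.0238), a call that 5 alternatives removed.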

How the results depend on the processing

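Over 54 gene results and 880 alternative values, 872 kept their side of the threshold, 6 lost a call and 2 gained one. The sign changed in 27 values of 11 results, 0 of them called in either setting. The 2 gained calls were IRF3 with trastuzumab without trastuzumab replicate 1 and BANF1 in SNU-484 without T-DXd replicate 3; they raised the members called to 2 in each of those comparisons, so that leaving out libraries gave 1 to 2 with trastuzumab in NCI-N87 and 1 to 2 in SNU-484. The lost calls were IRF3 against trastuzumab without trastuzumab replicate 2, and CGAS in the difference between lines (upper-quartile factors and 4 libraries left out in turn); their causes were not tested. With libraries left out, the members called ran from 5 to 6 for T-DXd against trastuzumab and from 3 to 4 for the difference between lines. No paired analysis is implied by the labels, since same-numbered samples share only a number. Of 12 pairs of same-numbered libraries, 3 had correlated deviations over 0.1 (range -0.0616 to 0.201). Among them were those of SNU-484 replicate 1 (0.195) and replicate 3 (0.201). With a replicate block the members called were 5, 1 and 6 in NCI-N87 (T-DXd against vehicle, trastuzumab against vehicle, T-DXd against trastuzumab), 1 in SNU-484, 4 for the difference and 7 between lines, as without it, and all genes called in SNU-484 were 4768. Leaving out single libraries took the calls over all genes from 1695 to as few as 993 with trastuzumab, and from 3526 to between 1466 and 5477 in SNU-484. The median of all genes moved by less than 0.1 (log2) under RLE and upper-quartile factors in all 6 comparisons. IFI16, TREX1, ENPP1 and, in SNU-484, STING1 had under 500 counts a library, which limits their precision, and for TREX1 (CV 27.0% with trastuzumab) and STING1 (CV 25.7% with T-DXd) replicates spread further than counting error alone gives.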
